A study of Mus musculus with 13 samples.

Results

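Bone morphogenetic proteins (BMPs) are secreted signals of the TGFβ superfamily, and 10 genes of their pathway were followed here through developing mouse skin, chosen by gene symbol from the 27998 genes in the count tables. They were the ligand genes Bmp2, Bmp4 and Bmp7, the genes of the secreted antagonists follistatin (Fst), noggin (Nog) and ectodin (Sostdc1), the type I receptor gene Bmpr1a, and the target genes Id1, Id2 and Id3. A BMP ligand brings type I and type II receptors together, the receptors phosphorylate Smad proteins, and these enter the nucleus with Smad4 and switch on targets such as the Id genes, whose products block basic helix-loop-helix factors. Antagonists bind the ligand, or a co-receptor, outside the cell. In embryonic skin BMPs are known to restrain hair placodes, dermal noggin is known to lift that restraint, and later the hair matrix and dermal papilla signal to each other through the same pathway.

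The data came from droplet single-cell RNA-seq (10x Chromium 3′) of 13 libraries from C57BL/6 mice. WT mice and mice without Grhl3 (Grhl3-/-), a transcription factor of the epidermal barrier, gave 2 libraries each at E14.5, E16.5 and P0, and a further WT library at P0 was made with the older v1 chemistry and entered no test. The 2 embryonic ages were whole back skin after a short Dispase step, whereas P0 was the epidermis alone, separated after Dispase overnight, so that age, tissue and digestion cannot be told apart between E16.5 and P0. The skin was taken at the level of the forelimbs, because all Grhl3-/- embryos had spina bifida further back, and the P0 samples were described in the methods as E18.5/P0. WT and Grhl3-/- mice were littermates, and p-values measure the spread between these libraries alone.

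The libraries held 5068 to 9978 cell barcodes and 49245953 to 107038146 unique molecular identifiers (UMIs, the tags of single captured transcripts), and 5058 to 9157 cells with a median of 7448 to 9976 UMIs were kept. Any 2 libraries shared at most 131 barcodes, and at most 1.76% of those of the smaller one. Cells were clustered at each age without the 10 genes, and classes were named from marker lists, with the ending -like, or by their leading genes. Unnamed cells made up 3.46 to 11.5% at E14.5, 20.01 to 22% at E16.5 and 18.5 to 20.6% at P0. The P0 libraries held no cluster with the fibroblast-like name. A cluster led by Rspo3 and Col3a1 had 34 and 14 WT and 72 and 65 Grhl3-/- cells. Rspo3 is on the marker list of dermal condensate or papilla, and Col3a1 on that of fibroblasts. Although the methods describe 1 male and 1 female per genotype and age, Xist marked only 1 of the 2 WT libraries at E14.5, both WT and 1 of the 2 Grhl3-/- libraries at E16.5, and no P0 library as female. Grhl3 itself stood in IFE suprabasal-like cells (the differentiated cells of the interfollicular epidermis, IFE) at 37.6 and 38.2 CPM (the share of a gene in all UMIs of that class in that library, on the usual CPM scale) in WT and 15.9 and 9.67 CPM in Grhl3-/- at E16.5, and at 27.7 and 27.3 against 8.46 and 19.2 CPM at P0. At E14.5 it stood at 99.7 and 133 CPM against 63.7 and 70.8 CPM, which did not pass the test (adjusted p = 0.335). Over all cells at E14.5 it stood at 4.42 and 7.30 CPM in WT and 4.08 and 9.89 CPM in Grhl3-/-, and the groups overlapped. Which part of Grhl3 is deleted, and whether the counted 3′ tags lie in it, is not given in the sources used here.

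Bmp2, which in skin marks the epithelium of the hair germ, was highest in WT hair placode-like cells before birth, the epithelial buds that start a follicle. They held 82.9 and 77.6 CPM of Bmp2 at E14.5 and 98.1 and 100 CPM at E16.5, above IFE basal-like cells (the dividing layer) at 23.6 and 26.3 CPM and then 55.3 and 45.8 CPM. In P0 epidermis Bmp2 was highest in a cluster led by Shh and Dcn, at 219 and 323 CPM, followed by hair matrix-like cells at 140 and 185 CPM and IFE basal-like cells at 165 and 114 CPM. The libraries of these last 2 classes overlapped, and the remaining classes lay below both.

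At E14.5 and E16.5 Bmp4 had its highest level in dermal condensate or papilla-like cells, the mesenchymal cluster under each hair bud. The WT libraries held 250 and 272 CPM there at E14.5 and 634 and 721 CPM at E16.5. The next dermal class, led by Crabp1 and Stmn2, held 55.8 and 57.6 CPM and then 35.7 and 39.4 CPM, the latter within the 49.4 and 21.1 CPM of erythroid-like cells in the same E16.5 libraries. Among named epithelial classes of P0, Bmp4 was highest in hair matrix-like cells at 63.8 and 91.4 CPM, which overlapped with a group of clusters led by Krt28 and Cldn10 at 67.5 and 57.2 CPM. The Rspo3 and Col3a1 cluster, with enough cells in only 1 WT library, held 544 CPM of Bmp4. With every cell sampled down to 2000 UMIs, 50.6 and 54.1% of WT condensate or papilla-like cells at E16.5 held a Bmp4 UMI (67.3 and 72.2% before thinning, median depths 5107 and 5356 UMIs), against 5.49 and 3.71% of erythroid-like cells (15.9 and 16.46% before thinning, median depths 11070 and 11790 UMIs), which should lack the gene. These WT erythroid-like cells also held 11460 to 15890 CPM of summed fibroblast markers. Macrophage-like cells of E16.5 held 2066 to 2363 CPM and fibroblast-like cells 42470 to 42900 CPM. Levels in the erythroid-like class may thus include other cells and are no clean floor of free RNA, which was not tested.

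Bmp7 was shared between epithelium and mesenchyme. At E14.5 hair placode-like cells (109 and 137 CPM), condensate or papilla-like cells (116 and 123 CPM) and IFE basal-like cells (98.6 and 105 CPM) held like levels of Bmp7, and the placode and condensate libraries overlapped. At E16.5 the 3 classes stood apart without overlap, at 364 and 373 CPM in condensate or papilla-like, 242 and 232 CPM in placode-like and 146 and 148 CPM in IFE basal-like cells. At P0 the Shh and Dcn cluster held 354 and 347 CPM of Bmp7 and hair matrix-like cells 302 and 308 CPM.

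The antagonists had sources of their own. Fst, whose product binds activins and several BMPs, was highest at E14.5 in WT IFE basal-like cells at 368 and 314 CPM and Schwann-like cells (the glia of skin nerves) at 281 and 306 CPM. At E16.5 Schwann-like cells led with 497 and 553 CPM of Fst. At P0 the cluster led by Pltp and Dcn, which had no marker name, held 406 and 420 CPM and upper hair follicle-like cells 345 and 369 CPM, without overlap, whereas IFE suprabasal-like cells held 19.7 and 17.4 CPM. The Rspo3 and Col3a1 cluster of 1 WT library held 604 CPM.

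Sostdc1, whose product binds BMPs and the Wnt co-receptor Lrp6, had levels over the classes much like those of Fst. It was highest in hair placode-like cells at E14.5 (772 and 598 CPM), in Schwann-like cells at E16.5 (1004 and 1015 CPM), and at P0 in the Pltp and Dcn cluster (477 and 577 CPM) and upper hair follicle-like cells (495 and 457 CPM), which overlapped. Cells that should lack both genes held some of each. The erythroid-like class is no clean background, given its fibroblast markers stated beside Bmp4. Erythroid-like cells at E16.5 held 58.6 and 49.8 CPM of Fst and 75.7 and 91.0 CPM of Sostdc1, and T cell-like cells at P0 held 41.9 and 52.4 CPM and 53.0 and 64.4 CPM. Thinned to 2000 UMIs, 37.9 and 37.8% of WT IFE basal-like cells at E16.5 held a Sostdc1 UMI (66.9 and 69.4% before thinning, median depths 8948 and 9131 UMIs). Of the erythroid-like cells of the same libraries it was 10.1 and 12.2% (27.1 and 34.2% before thinning).

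Nog, the classical noggin antagonist, was a low transcript of muscle-like cells and dermal classes. WT muscle-like cells led at E14.5 with 15.7 and 23.4 CPM of Nog, and the Crabp1 and Stmn2 dermal cluster led at E16.5 with 20.8 and 20.2 CPM, ahead of fibroblast-like cells at 11.6 and 12.2 CPM. Muscle-like cells then held 11.7 and 9.01 CPM. In P0 epidermis every named class outside the Rspo3 and Col3a1 cluster (32.0 CPM in 1 library) held at most 1.97 CPM of Nog in WT.

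Bmpr1a, the receptor that transmits BMP2 and BMP4 signals in skin, was found in most classes. At E14.5 its levels in WT ran from 3.42 and 4.48 CPM in endothelial-like cells and 6.54 and 8.002 CPM in macrophage-like cells up to 48.8 and 51.7 CPM in fibroblast-like cells. Hair placode-like cells at 41.5 and 46.9 CPM lay just below without overlap, and IFE basal-like cells held 36.9 and 40.3 CPM. At P0 upper hair follicle-like cells held the most Bmpr1a, 75.9 and 77.7 CPM, and IFE basal-like cells held 48.6 and 54.0 CPM.

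The Id targets divided the classes differently. Id1 was highest at E16.5 in endothelial-like cells (193 and 213 CPM) and condensate or papilla-like cells (174 and 210 CPM), which overlapped. Id3 was highest in the same classes, with 605 and 672 CPM in endothelial-like and 710 and 663 CPM in condensate or papilla-like cells, again with overlap. Id2 instead was highest in mast-like cells (1045 and 1438 CPM) and Schwann-like cells (587 and 574 CPM) at E16.5, and at P0 in T cell-like cells (444 and 480 CPM) and macrophage-like cells (330 and 323 CPM), with 23.6 and 31.5 CPM of Id2 in IFE basal-like cells. Over the 45 WT means of class and age, log2(CPM + 1) of Id1 and Id3 had a Pearson r of 0.73, and that of Id2 and Id3 an r of -0.24. These means share libraries, so r is a description without a test.

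**Figure D1:**
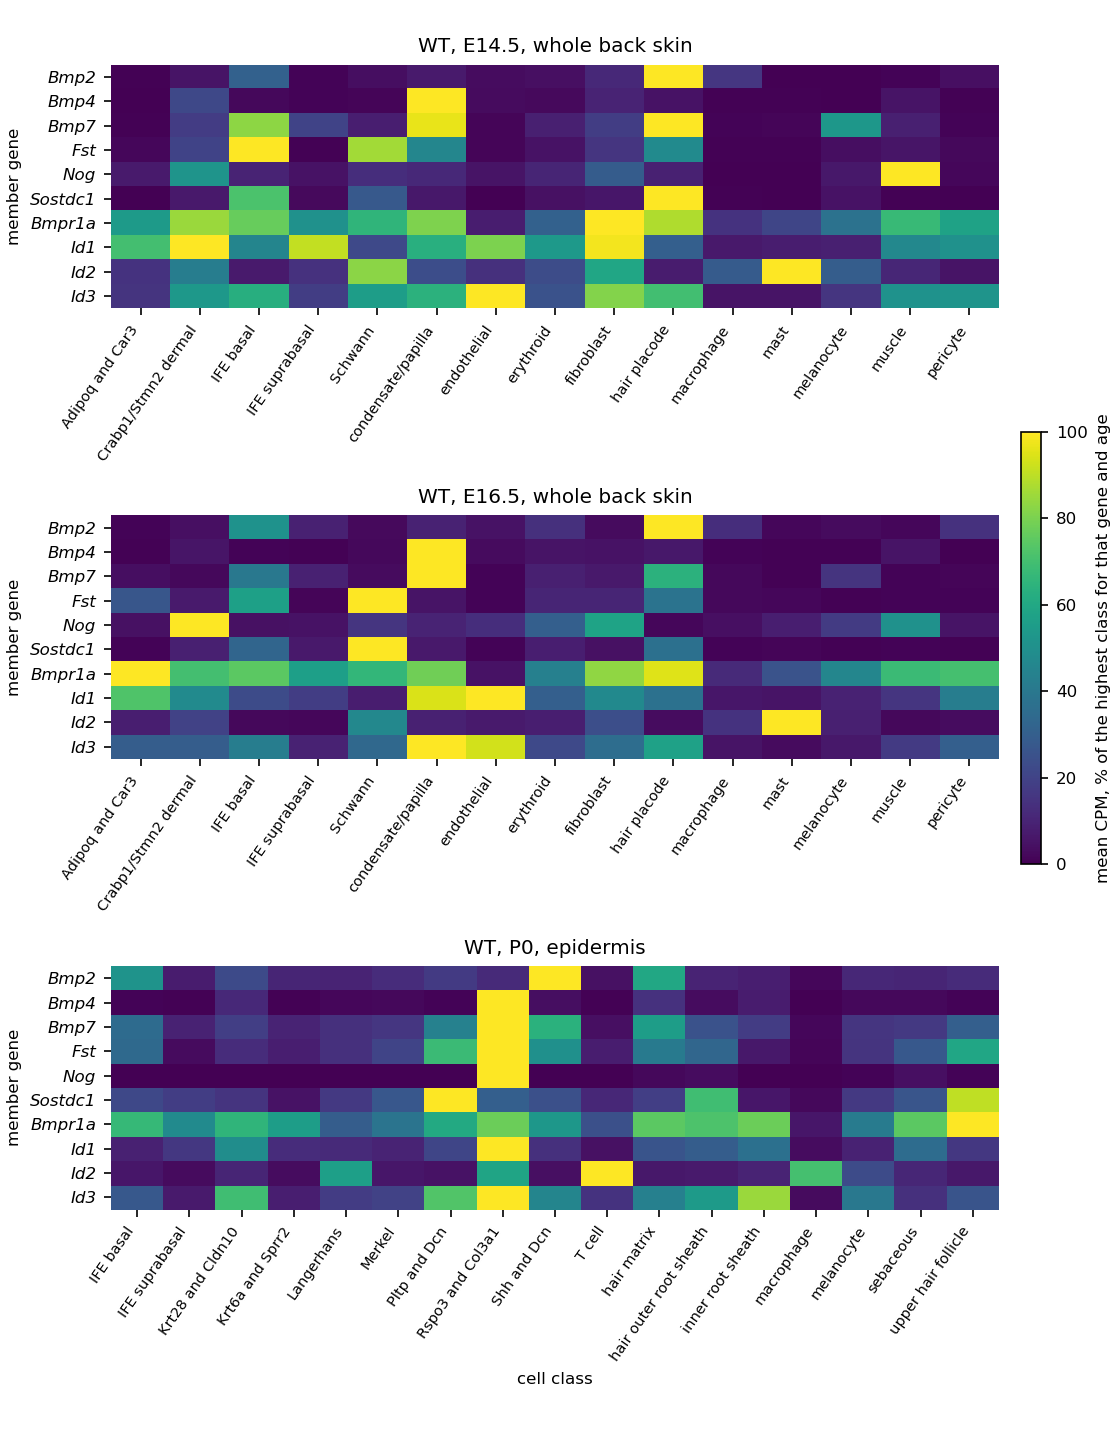
Mean level of each gene in WT cells by cell class at E14.5, E16.5 and P0, as a percentage of the highest class for that gene and age (colour, from 0 to 100%), over the v2 libraries in which the class had at least 20 cells. Before birth Bmp4 peaks in condensate or papilla-like cells and Fst and Sostdc1 in IFE basal-like, placode-like or Schwann-like cells, Id2 in mast-like cells, and Bmpr1a is spread over most classes.

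The promoters of Id3 and Id2 are shown because the levels of these 2 targets ran apart over the classes. They run from 250 bases before to 50 bases after the gene start in RefSeq on GRCm38.p6, that of Id3 at chr4:136143572-136143871 on the plus strand and that of Id2 at chr12:25096043-25096342 on the minus strand, each written 5′ to 3′ along its gene. Capitals mark the letters GGCGCC, as found in BMP-responsive elements, and GTCT or its reverse complement AGAC, the Smad-binding letters, each searched on both strands.
Id3: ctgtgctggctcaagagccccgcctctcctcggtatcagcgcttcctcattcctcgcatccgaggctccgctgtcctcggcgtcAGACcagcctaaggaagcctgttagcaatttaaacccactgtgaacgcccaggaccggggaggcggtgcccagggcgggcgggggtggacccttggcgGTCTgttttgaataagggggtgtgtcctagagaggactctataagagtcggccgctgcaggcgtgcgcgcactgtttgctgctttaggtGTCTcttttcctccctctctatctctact
Id2: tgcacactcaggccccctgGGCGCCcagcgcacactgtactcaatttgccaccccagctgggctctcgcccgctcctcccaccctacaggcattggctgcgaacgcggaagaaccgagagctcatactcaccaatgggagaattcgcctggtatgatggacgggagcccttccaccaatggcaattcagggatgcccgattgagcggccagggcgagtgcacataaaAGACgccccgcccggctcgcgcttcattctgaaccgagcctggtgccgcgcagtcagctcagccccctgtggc

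The Id3 window held GGCGCC 0 times and GTCT or AGAC 3 times, and the Id2 window held each 1 time. Of all 32851 promoter windows of that length in the table, 11.9% held GGCGCC and 88.0% held GTCT or AGAC, so the latter letters are common anywhere. A match describes letters in the window and nothing about binding. Promoter windows were matched for 4 of the 10 genes.

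Between E14.5 and E16.5 the levels of BMP genes in WT skin changed in many classes. Bmp4, Bmp7, Id1 and Id3 rose in condensate or papilla-like cells, Sostdc1 and Fst rose in Schwann-like cells, Sostdc1 fell in placode-like cells, and Id2 rose in mast-like cells. Of 120 tests of the 10 genes over 14 classes, 44 passed, 32 higher and 12 lower at E16.5, where 15.6% of all 136611 tests passed (8.5% higher and 7.15% lower). The median log2 fold change of the 10 genes was 0.43, and that of all tests 0.012. Without each library in turn, 21 of the 44 passed every time. The female and male WT libraries were unevenly spread over the ages, and the fit without WT replicate 1 of E14.5, which compares females only, gave 32 calls. Summed IFE suprabasal markers were higher at E16.5, without overlap, in all 14 classes, fibroblast markers in 12, stress genes in 11 and erythroid genes in 9, and S phase genes were lower in 11. The part of these shifts in the results was not tested.

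In condensate or papilla-like cells Bmp4 rose by a log2 fold change of 1.31 ± 0.14 (SE, adjusted p = 3.98e-07) from the values given above. Bmp7 rose there from 116 and 123 CPM to 364 and 373 CPM (1.56 ± 0.16, adjusted p = 2.11e-07). Neither gene's libraries overlapped between the ages. Of the targets, Id1 went from 80.4 and 62.6 CPM to 174 and 210 CPM (1.33 ± 0.22, adjusted p = 0.000169) and Id3 from 241 and 301 CPM to 710 and 663 CPM (1.28 ± 0.16, adjusted p = 4.20e-06). These 4 calls passed in every alternative fit that gave a value. Id2 held 107 and 98.7 CPM and then 107 and 120 CPM and did not pass. Fst fell there from 107 and 207 CPM to 25.9 and 28.5 CPM (-2.57 ± 0.32, adjusted p = 5.76e-06), but the change was -0.70 with adjusted p = 0.0850 in clusters of resolution 0.5 and -0.69 with adjusted p = 0.0670 without integration of the libraries. Cells in S or G2M phase made up 13.7 and 16.95% of the WT class at E14.5 and 2.64 and 3.91% at E16.5, and the summed dissociation stress genes stood at 1514 to 1697 CPM and 3103 to 3590 CPM. Their part in these results was not tested.

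**Figure D2:**
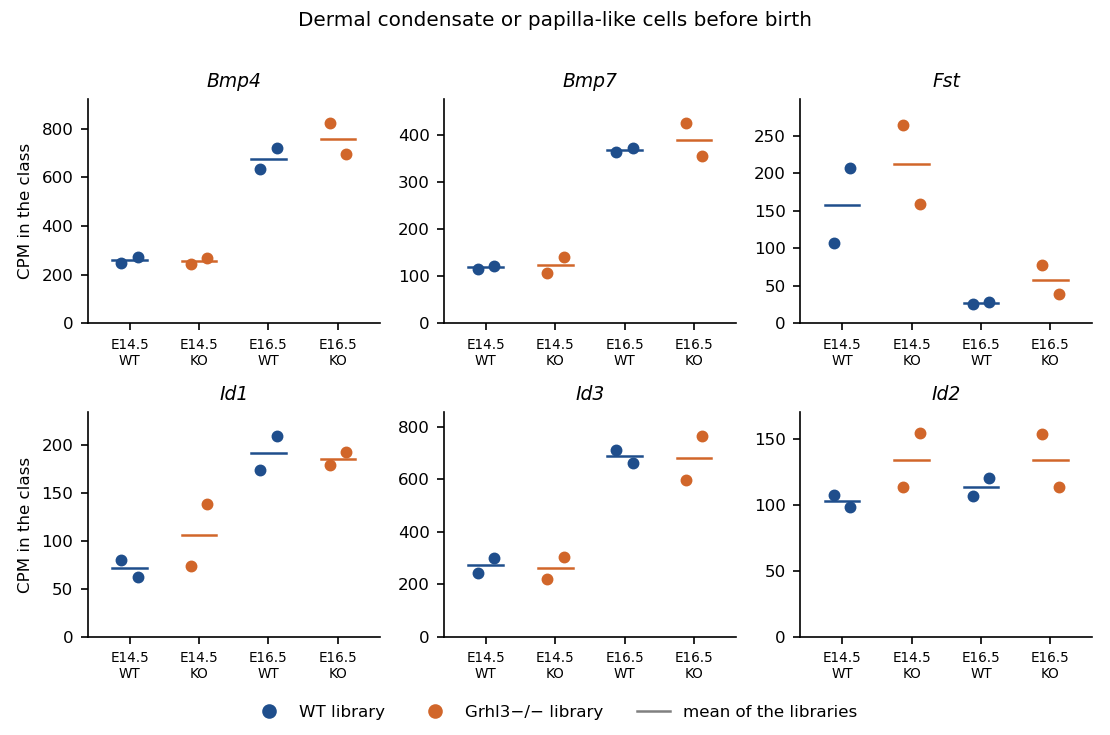
CPM of Bmp4, Bmp7, Fst, Id1, Id3 and Id2 in dermal condensate or papilla-like cells, 1 point per library and a line at the mean of the 2 libraries, for WT (blue) and Grhl3-/- (orange, KO on the axis) at E14.5 and E16.5. Bmp4, Bmp7, Id1 and Id3 are higher at E16.5 in every library, Fst is lower, and Id2 overlaps.

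In Schwann-like cells Sostdc1 rose from 222 and 163 CPM to 1004 and 1015 CPM (log2 fold change 2.41 ± 0.15, adjusted p = 9.13e-11). Fst rose in the same cells from 281 and 306 CPM to 497 and 553 CPM (0.86 ± 0.13, adjusted p = 5.92e-05) and Id2 from 358 and 361 CPM to 587 and 574 CPM (0.72 ± 0.12, adjusted p = 0.000218). None of these 3 overlapped between ages, and all passed in every alternative fit. Both antagonists lay far above erythroid-like cells of the same libraries. In WT Schwann-like cells the fibroblast markers went from 3571 to 3722 CPM up to 10200 to 11390 CPM, the suprabasal markers from 77.8 to 96.5 CPM up to 1311 to 1928 CPM and the erythroid genes from 5533 to 8205 CPM up to 17540 to 21050 CPM, and cells in S or G2M phase from 59.6 and 56.1% to 37.4 and 37.9%. In mast-like cells Id2 rose from 446 and 423 CPM to 1045 and 1438 CPM (1.66 ± 0.14, adjusted p = 1.08e-06), while their share of cells in S or G2M phase went from 76.2 to 85.5% down to 23.1 to 29.4%.

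The hair buds lost Sostdc1 and gained Bmp7. In hair placode-like cells Sostdc1 fell from 772 and 598 CPM to 344 and 399 CPM (-0.89 ± 0.13, adjusted p = 2.70e-05), and Bmp7 rose from 109 and 137 CPM to 242 and 232 CPM (0.85 ± 0.16, adjusted p = 0.000422). Both passed in every alternative fit that gave a value, and the fit without cells in S or G2M phase gave none. Bmp4 rose from 15.6 and 10.8 CPM to 45.3 and 42.8 CPM (1.83 ± 0.39, adjusted p = 0.00179), a level like that of erythroid-like cells in the same libraries (49.4 and 21.1 CPM), and Id1 from 41.5 and 27.1 CPM to 66.9 and 84.5 CPM (1.26 ± 0.32, adjusted p = 0.00901). Without WT replicate 2 of E14.5 neither passed, with adjusted p = 0.351 for Bmp4 and 0.525 for Id1, nor did they at equal depth (0.165 and 0.183). The class had 23 and 56 WT cells at E14.5 and 348 and 334 at E16.5, and its suprabasal markers went from 256 to 544 CPM up to 2371 to 2803 CPM.

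In IFE basal-like cells Bmp7 rose from 98.6 and 105 CPM to 146 and 148 CPM (0.66 ± 0.13, adjusted p = 0.00138), with adjusted p = 0.0918 when cells in S or G2M phase were left out. Bmp2 rose there from 23.6 and 26.3 CPM to 55.3 and 45.8 CPM (1.14 ± 0.30, adjusted p = 0.0147), which did not pass without WT replicate 1 of E14.5 (adjusted p = 0.0858), replicate 2 of E14.5 (0.142) or replicate 1 of E16.5 (0.0681), or without the cells in S or G2M phase (0.488). Summed suprabasal markers in these basal-like cells went from 539 to 656 CPM at E14.5 up to 7499 to 8673 CPM at E16.5, and their part in the rises of Bmp7 and Bmp2 was not tested. Id1 in IFE suprabasal-like cells fell from 113 and 93.3 CPM to 32.5 and 42 CPM (-1.18 ± 0.23, adjusted p = 0.00580), but the adjusted p was 0.0555 without replicate 1 of either age. Id2 fell there from 48.7 and 76.4 CPM to 28.0 and 19.6 CPM (-1.17 ± 0.29, adjusted p = 0.0195), with adjusted p = 0.281 without WT replicate 2 of E14.5 and 0.153 without replicate 2 of E16.5, and 0.0727 at resolution 0.5. Between these ages the summed suprabasal markers of the class went from 26400 to 29100 CPM up to 116200 to 129200 CPM, its stress genes from 4762 to 5217 CPM down to 2441 to 2605 CPM, and its share of cells in S or G2M phase from 19.7 and 21.9% to 6.54 and 5.98%. The part of these shifts in the falls of Id1 and Id2 was not tested.

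In the dermis and its vessels the antagonist Nog rose from 4.995 and 6.33 CPM to 11.6 and 12.2 CPM in fibroblast-like cells (1.28 ± 0.12, adjusted p = 6.35e-05) and from 11.98 and 8.23 CPM to 20.8 and 20.2 CPM in the Crabp1 and Stmn2 dermal cluster (1.18 ± 0.22, adjusted p = 0.00199). Bmp2 fell in fibroblast-like cells from 9.62 and 8.86 CPM to 2.62 and 3.28 CPM (-1.45 ± 0.18, adjusted p = 0.000305), and Bmp7 fell in the Crabp1 and Stmn2 cluster from 19.5 and 24.4 CPM to 7.10 and 8.91 CPM (-1.36 ± 0.21, adjusted p = 0.000475). These 4 calls passed in every alternative fit. Id1 rose in endothelial-like cells from 99.7 and 82.9 CPM to 193 and 213 CPM (1.17 ± 0.17, adjusted p = 0.000814). The change was 1.05 ± 0.29 (adjusted p = 0.0629) when cells in S or G2M phase were left out. Bmpr1a passed in 0 of 13 classes, with log2 fold changes from -0.16 to 0.53.

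From E16.5 to P0 only 4 WT classes could be compared: IFE basal-like, IFE suprabasal-like, melanocyte-like and macrophage-like cells. In basal-like cells Bmp2 rose and Id1, Id3 and Sostdc1 fell. Of 36 tests 20 passed, 12 higher and 8 lower, where 45.9% of all 39388 tests passed (23.5% higher and 22.4% lower). The median log2 fold change of the 10 genes was 0.33, and that of all tests 0.021. All P0 libraries were male and both WT libraries of E16.5 female, so sex cannot be told apart from age here, beside tissue and digestion. Fibroblast markers, erythroid genes, stress genes and S phase genes were lower at P0, without overlap, in all 4 classes. Summed IFE suprabasal markers were lower in 3 and higher in 1, melanocyte-like cells, at 1307 to 1421 and then 1815 to 2029 CPM. In IFE suprabasal-like cells they went from 116200 to 129200 CPM down to 71530 to 71940 CPM. The part of these shifts in the results at these ages was not tested.

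In IFE basal-like cells Bmp2 went from 55.3 and 45.8 CPM to 165 and 114 CPM (log2 fold change 1.42 ± 0.24, adjusted p = 5.78e-05). Id3 fell from 291 and 292 CPM to 97.3 and 141 CPM (-1.33 ± 0.17, adjusted p = 3.13e-06) and Id1 from 37.2 and 56.0 CPM to 25.7 and 24.4 CPM (-0.94 ± 0.21, adjusted p = 0.000828). Sostdc1 fell from 336 and 326 CPM to 107 and 120 CPM (-1.58 ± 0.30, adjusted p = 0.000255). The groups did not overlap for any of these 4 genes, and all 4 passed in every alternative fit. Cells in S or G2M phase went from 76.4 and 76.5% to 52.7 and 41.8%, fibroblast markers from 1703 to 1783 CPM down to 762 to 832 CPM and suprabasal markers from 7499 to 8673 CPM down to 5768 to 6292 CPM. Bmp7 (0.34 ± 0.12, adjusted p = 0.0167) and Fst (-0.56 ± 0.21, adjusted p = 0.0314) also passed, but without WT replicate 1 of P0 the adjusted p was 0.0579 for Bmp7 and 0.471 for Fst, whose change was then -0.20, and without WT replicate 2 of E16.5 it was 0.0929 and 0.184. Bmp4 and Id2 did not pass. Bmpr1a passed with a higher level at P0, and its alternative fits are not given here. Nog, at 0.922 and 0.991 CPM at E16.5, was at 0.123 and 0 CPM at P0 (adjusted p = 0.00644, and 0.0537 without WT replicate 2 of P0). The v1 library at P0 held 28.8 CPM of Bmp2 and 206 CPM of Sostdc1 in IFE basal-like cells, outside the range of the v2 WT libraries at P0 and, for Bmp2, below both libraries of E16.5.

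In IFE suprabasal-like cells Id3 fell from 68.7 and 62.1 CPM to 22.6 and 41.7 CPM (-0.95 ± 0.26, adjusted p = 0.0135), with adjusted p = 0.0659 without WT replicate 1 of E16.5 and 0.110 without replicate 1 of P0. Fst rose there from between 5.37 and 8.55 CPM to between 17.4 and 19.7 CPM (1.54 ± 0.40, adjusted p = 0.00913), Bmp7 from between 33.2 and 34.5 CPM to between 50.5 and 55.9 CPM (0.73 ± 0.23, adjusted p = 0.0227) and Bmp2 from between 3.45 and 14.7 CPM to between 16.1 and 25.5 CPM (1.40 ± 0.47, adjusted p = 0.0329). Without WT replicate 2 of E16.5 none of these 3 passed, with adjusted p = 0.130, 0.143 and 0.325, nor without called doublets (0.0927, 0.0782 and 0.0831). Without WT replicate 2 of P0 neither Bmp7 nor Bmp2 passed (0.194 for Bmp2), and at resolution 0.5 the changes of Fst and Bmp2 were 0.33 (adjusted p = 0.733) and 0.36 (0.678). Melanocyte-like cells, which came from dermis and epidermis before birth and from epidermis at P0, went from 2.00 and 5.20 CPM to 77.7 and 105 CPM of Fst (4.84 ± 0.57, adjusted p = 1.70e-05) and from 5.99 and 5.20 CPM to 97.1 and 79.3 CPM of Sostdc1 (4.07 ± 0.76, adjusted p = 0.000929). These P0 levels lay near those of Langerhans-like cells, immune cells of the epidermis, at 95.8 and 71.3 CPM of Fst and 82.1 and 90.7 CPM of Sostdc1. Id3, which fell in the other 3 classes, rose in melanocyte-like cells from 69.9 and 18.2 CPM to 159 and 191 CPM (2.009 ± 0.37, adjusted p = 0.000760, and 0.0699 without cells in S or G2M phase). In macrophage-like cells Id2 rose from 194 and 172 CPM to 330 and 323 CPM (1.07 ± 0.19, adjusted p = 0.000381). Id3 fell there from 37.3 and 36.6 CPM to 14.6 and 11.7 CPM (-1.28 ± 0.27, adjusted p = 0.00137), but by only -0.18 with adjusted p = 0.657 when called doublets were left out. Stress genes in WT macrophage-like cells went from 4773 to 5033 CPM at E16.5 down to 2098 to 2099 CPM at P0, and their part was not tested.

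**Figure D3:**
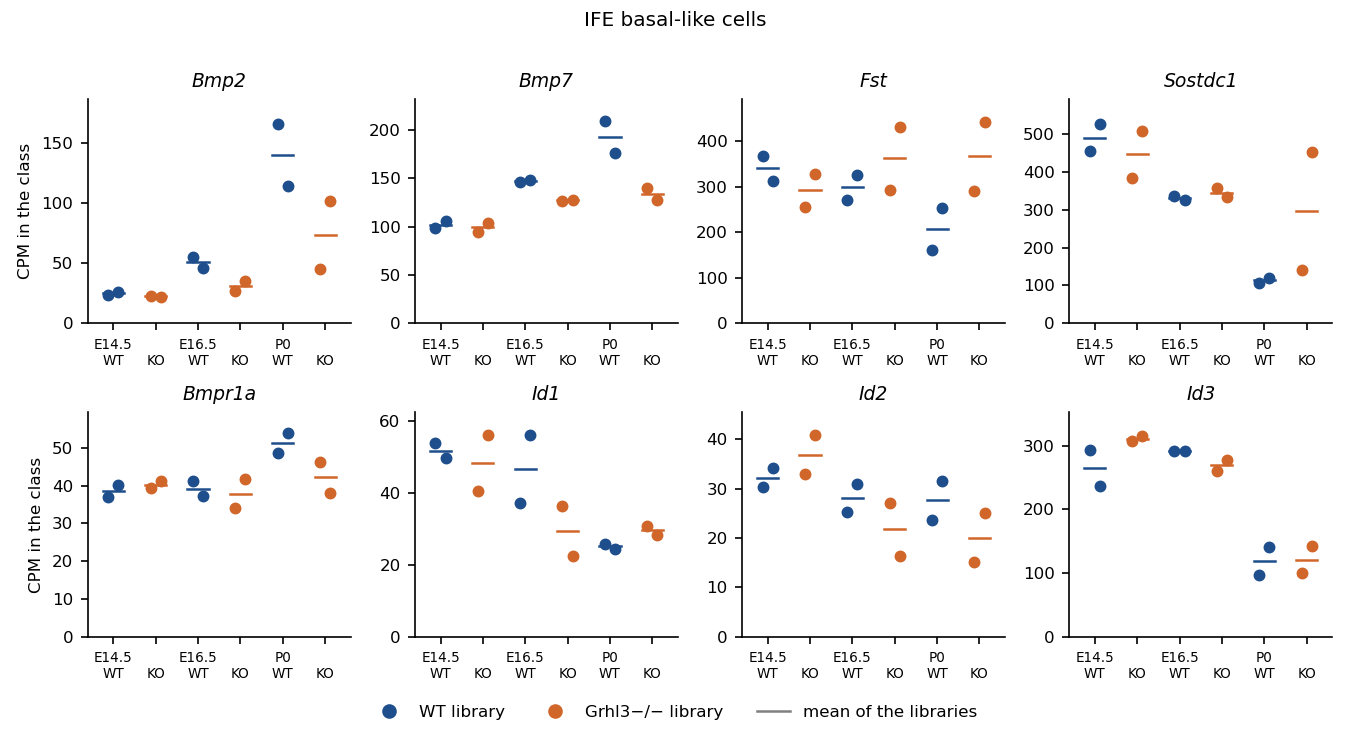
CPM of 8 of the genes in IFE basal-like cells, 1 point per library and a line at the mean of the 2 libraries, for WT (blue) and Grhl3-/- (orange, KO on the axis) at E14.5, E16.5 and P0. Bmp2 and Bmp7 are higher at P0 in WT than at E14.5, Id3 and Sostdc1 are lower, and 1 Grhl3-/- library at P0 has 453 CPM of Sostdc1 where the other has 141 CPM.

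Between Grhl3-/- and WT skin at E14.5, 1 of 120 tests of the 10 genes over 14 classes passed, where 0.641% of all tests did (0.284% higher and 0.356% lower). The median log2 fold change of the 10 genes was 0.05, and that of all tests 0.0040. Summed suprabasal markers were above WT without overlap in 10 of the 14 classes and fibroblast markers in 9, and their part was not tested. Nog was higher in Grhl3-/- fibroblast-like cells, at 9.95 and 9.51 CPM against 4.995 and 6.33 CPM in WT (0.76 ± 0.12, adjusted p = 0.0106). That class held 706 of the 875 calls over all genes and classes, 4.96% of its own tests. The groups did not overlap, and the call stayed without each library, but the adjusted p was 0.0579 when only the 4 libraries of E14.5 were fitted and 0.0911 without cells in S or G2M phase. In condensate or papilla-like cells Bmp4, at 245 and 269 CPM in Grhl3-/-, and Bmp7, at 107.5 and 141 CPM, overlapped with WT and did not pass.

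At E16.5 3 of 120 tests passed, 1 higher and 2 lower, where 0.827% of all tests did (0.262% higher and 0.565% lower). The median log2 fold change of the 10 genes was -0.12, and that of all tests -0.0030. Summed suprabasal markers were below WT without overlap in 13 of the 14 classes, and their part in the results was not tested. Sostdc1 was lower in Grhl3-/- hair placode-like cells, at 234 and 237 CPM against 344 and 399 CPM (-0.70 ± 0.13, adjusted p = 0.00272). The groups did not overlap. It did not pass without WT replicate 2 of E16.5 (adjusted p = 0.0742), at equal depth (-0.55, adjusted p = 0.846), at resolution 0.5 (-0.29, adjusted p = 0.887) or without integration (-0.56, adjusted p = 0.106). Bmp4 was higher in the Crabp1 and Stmn2 dermal cluster, at 67.6 and 52.6 CPM against 35.7 and 39.4 CPM (0.70 ± 0.14, adjusted p = 0.0407), where erythroid-like cells held 24.4 and 29.5 CPM in Grhl3-/- and 49.4 and 21.1 CPM in WT, and Id3 lower in macrophage-like cells, at 14.7 and 19.8 CPM against 37.3 and 36.6 CPM (-1.12 ± 0.26, adjusted p = 0.0397). Without single libraries the adjusted p of Bmp4 was 0.0742 and 0.0765 (Grhl3-/- replicates 1 and 2 of E14.5), 0.473 and 0.272 (WT replicates 1 and 2 of E16.5) and 0.363 (Grhl3-/- replicate 1 of E16.5), and that of Id3 was 0.198 and 0.173 (WT replicates) and 0.281 and 0.0799 (Grhl3-/- replicates). DESeq2 gave adjusted p = 0.141 for Bmp4, and leaving out called doublets gave a change of -0.41 with adjusted p = 0.563 for Id3. Grhl3-/- macrophage-like cells held 2402 to 2828 CPM of stress genes against 4773 to 5033 CPM in WT, and 123.5 to 219.9 CPM of summed IFE suprabasal markers against 1496 to 1991 CPM, and the part of either in the Id3 difference was not tested. These suprabasal markers were also lower in Grhl3-/- in the other 2 classes named here, at 690 to 1238 CPM against 2371 to 2803 CPM in placode-like cells and at 213 to 326 CPM against 1192 to 1622 CPM in the Crabp1 and Stmn2 cluster. Only the fit without Grhl3-/- replicate 1 compared libraries of 1 sex at this age, and there Sostdc1 in placode-like cells still passed.

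At P0 the Grhl3-/- epidermis differed from WT in many more tests. Fst was lower in 5 classes, hair matrix-like and outer root sheath-like cells among them, and higher in 3, among them both IFE classes, Sostdc1 was higher in 4 classes, Bmp2 and Bmp7 were lower in 6 tests, and Id1 and Id3 were higher in a cluster led by Krt6a and Sprr2 genes. Of 133 tests over 15 classes 26 passed (19.5%), 13 in each direction, where 16.2% of all 144183 tests did (8.37% higher and 7.8% lower). The median log2 fold change of the 10 genes was -0.04, and that of all tests -0.018. Of the 26 calls, 9 passed without each library in turn. Values of these and the other tests are plotted by class in the map of P0 fold changes.

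The summed level of 15 dissociation stress genes was above WT in both Grhl3-/- libraries in 13 of the 15 classes and below it in 0. Erythroid genes were above WT without overlap in 14 classes, S phase genes in 13 and fibroblast markers in 6, and suprabasal markers were below it in 11. Erythroid levels were low in most classes, as in IFE basal-like cells at 5.62 to 10.2 CPM against 0.521 to 1.85 CPM in WT. The fibroblast list holds Dcn, which the paper also reports in its basal keratinocytes IFE.B2, so it does not mark dermal cells alone. The part of these shifts in the results at P0 was not tested. The WT library of v1 chemistry, in no test, gave other values for WT. For 8 of the 26 calls its value lay within or past the range of the Grhl3-/- libraries, for 12 between the 2 groups, for 2 within the WT range and for 4 on the far side of WT. In that library chemistry and mouse cannot be told apart.

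Fst passed in 8 of 15 classes. In hair outer root sheath-like cells it stood at 48.3 and 58.0 CPM in Grhl3-/- and 144 and 254 CPM in WT (-1.82 ± 0.23, adjusted p = 0.000520), in hair matrix-like cells at 79.1 and 100 CPM and 203 and 290 CPM (-1.36 ± 0.19, adjusted p = 0.00312), and in inner root sheath-like cells at 14.8 and 17.4 CPM and 39.8 and 36.0 CPM (-1.14 ± 0.22, adjusted p = 0.0105). No Grhl3-/- library reached a WT library in these 3 classes, and all 3 calls passed in every alternative fit. The v1 library held 132, 208 and 119 CPM of Fst there, in each class above both Grhl3-/- libraries. Fst was also lower in the Krt28 and Cldn10 clusters, at 27.0 and 38.7 CPM against 64.8 and 90.8 CPM (-1.14 ± 0.20, adjusted p = 0.00983), with adjusted p = 0.0516 without WT replicate 2 and 0.109 without integration. It was lower as well in the Shh and Dcn cluster, at 161 and 178 CPM against 258 and 349 CPM (-0.77 ± 0.18, adjusted p = 0.0297). That last call did not pass without WT replicate 2 (adjusted p = 0.0648), Grhl3-/- replicate 1 (0.0928) or Grhl3-/- replicate 2 (0.0944). In outer root sheath-like cells 73.7 to 78.7% of Grhl3-/- and 31.6 to 44.4% of WT cells were in S or G2M phase. With those cells left out the call of Fst stayed, while those of Bmp7 and Bmp4 in this class, given below, did not (adjusted p = 0.0921 and 0.0670).

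In the IFE Fst ran the other way. IFE suprabasal-like cells held 75.1 and 84.7 CPM in Grhl3-/- and 19.7 and 17.4 CPM in WT (2.00 ± 0.33, adjusted p = 0.00137), which turned to -0.90 with adjusted p = 0.435 when the libraries were clustered without integration. The summed markers of that class were 35750 to 45850 CPM in Grhl3-/- and 71530 to 71940 CPM in WT, and the v1 library held 62.4 CPM of Fst. Summed fibroblast markers there were 313 to 536 CPM in Grhl3-/- and 77.4 to 83.4 CPM in WT, and the part of either in the Fst difference was not tested. That fibroblast list holds Dcn, and the paper reports Dcn and Fst together as markers of its basal population IFE.B2. In IFE basal-like cells Fst stood at 292 and 442 CPM against 161 and 254 CPM (0.79 ± 0.21, adjusted p = 0.00841), with 288 CPM in the v1 library, and did not pass without WT replicate 1 (adjusted p = 0.137) or Grhl3-/- replicate 2 (0.109), or with DESeq2 (0.0530). In the Pltp and Dcn cluster it stood at 564 and 635 CPM against 406 and 420 CPM (0.56 ± 0.14, adjusted p = 0.0289). The v1 library exceeded all of these at 813 CPM, and the call was lost without WT replicate 1 (adjusted p = 0.0770), Grhl3-/- replicate 1 (0.154) or Grhl3-/- replicate 2 (0.200).

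Sostdc1 passed in 4 classes, each time higher in Grhl3-/-. Sebaceous-like cells held 375 and 558 CPM of Sostdc1 against 156 and 121 CPM (1.81 ± 0.23, adjusted p = 0.00415), from 39 and 25 Grhl3-/- and 119 and 82 WT cells, and the adjusted p was 0.177 without WT replicate 1 and 0.147 without WT replicate 2. In IFE basal-like cells the Grhl3-/- libraries stood far apart at 141 and 453 CPM against 107 and 120 CPM (1.325 ± 0.30, adjusted p = 0.00253), and without Grhl3-/- replicate 2 the log2 fold change was 0.34 (adjusted p = 0.124). Outer root sheath-like cells held 486 and 603 CPM against 360 and 372 CPM (0.66 ± 0.13, adjusted p = 0.00422), which again did not pass without Grhl3-/- replicate 2 (adjusted p = 0.0621) and was 0.01 (adjusted p = 0.964) without integration. The v1 library held 338 CPM of Sostdc1 in sebaceous-like, 206 CPM in IFE basal-like and 750 CPM in outer root sheath-like cells, each above both v2 WT libraries. In Langerhans-like cells Sostdc1 stood at 110.5 and 215 CPM against 82.1 and 90.7 CPM (0.92 ± 0.25, adjusted p = 0.0400), with 240 CPM in the v1 library, and did not pass without WT replicate 1 (adjusted p = 0.251), WT replicate 2 (0.158) or Grhl3-/- replicate 2 (0.494), or with called doublets left out (1.48 ± 1.14, adjusted p = 0.529). Summed suprabasal markers in these immune cells were 1733 to 2706 CPM in Grhl3-/- and 5400 to 6658 CPM in WT, and T cell-like cells of the WT libraries held 53.0 and 64.4 CPM of Sostdc1. The part of signal from other cells in this call was not tested. Nog was testable in IFE basal-like cells alone, where its levels were under 1 CPM in every library.

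**Figure D4:**
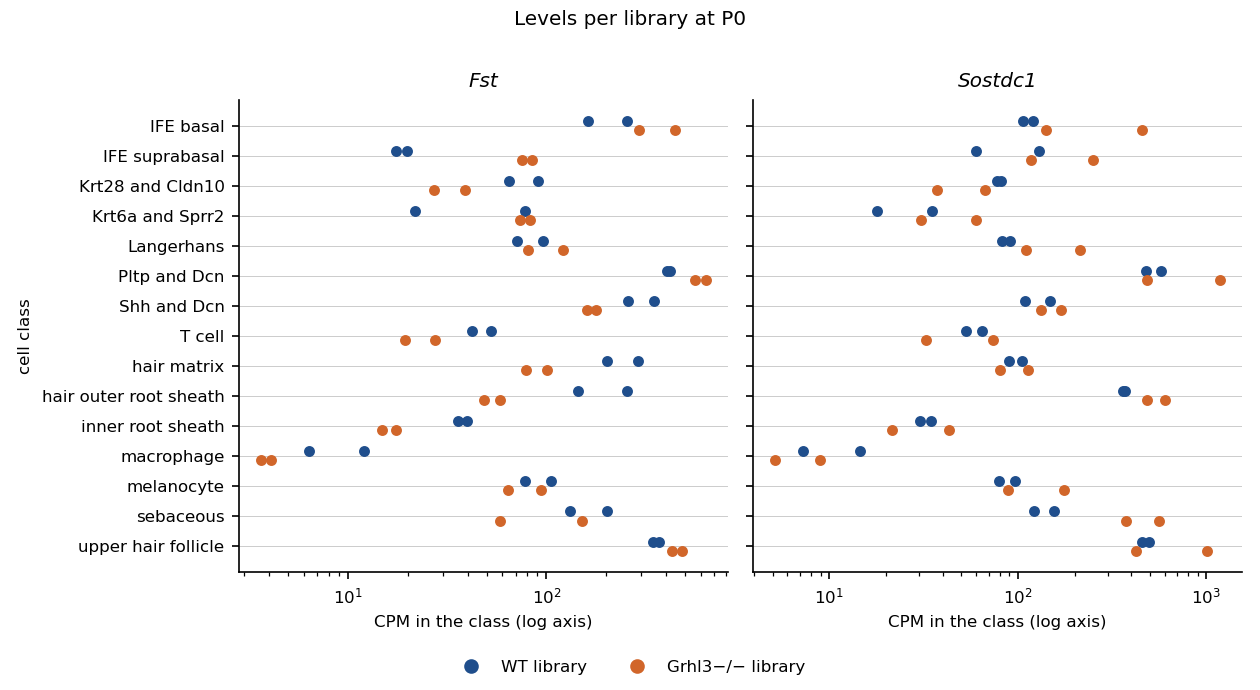
CPM on a log axis of the antagonist genes Fst and Sostdc1 in each tested class at P0, 1 point per library, WT (blue) and Grhl3-/- (orange). Fst is lower in Grhl3-/- in outer root sheath-like, hair matrix-like and inner root sheath-like cells and higher in IFE suprabasal-like cells, and Sostdc1 in WT is highest in the Pltp and Dcn cluster and upper hair follicle-like cells.

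The ligands Bmp2 and Bmp7 were lower wherever they passed. In IFE basal-like cells Bmp2 stood at 45.1 and 101 CPM in Grhl3-/- and 165 and 114 CPM in WT (-1.003 ± 0.23, adjusted p = 0.00255) and Bmp7 at 140 and 127 CPM against 209 and 176 CPM (-0.53 ± 0.12, adjusted p = 0.00171). Both passed in every alternative fit, yet the v1 WT library lay below all Grhl3-/- libraries, at 28.8 CPM of Bmp2 and 108 CPM of Bmp7. In these basal-like cells of P0 the summed suprabasal markers were 3588 to 3838 CPM in Grhl3-/- and 5768 to 6292 CPM in WT, the fibroblast markers 1146 to 1318 CPM and 762 to 832 CPM, and the S phase genes 1741 to 2354 CPM and 989 to 1119 CPM. Their part in the differences of Fst, Sostdc1, Bmp2 and Bmp7 was not tested. In the Krt6a and Sprr2 cluster Bmp2 stood at 6.80 and 4.21 CPM against 37.0 and 18.7 CPM (-2.355 ± 0.43, adjusted p = 0.00284), also in every alternative fit, with 23.2 CPM in the v1 library.

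Bmp7 was also lower in hair matrix-like cells, at 210 and 192 CPM against 302 and 308 CPM (-0.50 ± 0.12, adjusted p = 0.0187), where the v1 library held 302 CPM. It was lower in outer root sheath-like cells, at 96.8 and 90.5 CPM against 128 and 151 CPM (-0.48 ± 0.13, adjusted p = 0.0190), and in the Pltp and Dcn cluster, at 162 and 148 CPM against 253 and 227 CPM (-0.60 ± 0.16, adjusted p = 0.0311). Without Grhl3-/- replicate 1 the adjusted p of Bmp7 was 0.0922, 0.0564 and 0.149 in these classes, and without Grhl3-/- replicate 2 it was 0.218, 0.137 and 0.249. The call in outer root sheath-like cells was lost without WT replicate 2 as well (adjusted p = 0.0956), and that in the Pltp and Dcn cluster without WT replicate 1 (0.0856). Bmp4 was higher in outer root sheath-like cells, at 21.1 and 31.1 CPM against 15.5 and 18.5 CPM (0.70 ± 0.22, adjusted p = 0.0389), with 23.4 CPM in the v1 library, and did not pass without WT replicate 1 (adjusted p = 0.0723) or Grhl3-/- replicate 2 (0.272). The receptor Bmpr1a was lower in IFE suprabasal-like cells, at 27.9 and 20.6 CPM against 32.6 and 41.0 CPM (-0.69 ± 0.18, adjusted p = 0.0123), with 24.7 CPM in the v1 library, and did not pass without WT replicate 2 (adjusted p = 0.107) or Grhl3-/- replicate 2 (0.0582), or at equal depth (0.336). The marker differences of this class given beside Fst stand here too, and their part was not tested.

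Among the targets Id1 and Id3 differed most in the Krt6a and Sprr2 cluster, named for a stress keratin and small proline-rich genes of the cornified layers. The paper describes a proliferative state, IFE.A1, that expresses Sprr2a3 and was found almost only in Grhl3-/- epidermis. Whether the Grhl3-/- cells of this cluster are that state was not tested, so the genotypes may differ here in kind of cell. Grhl3-/- cells of this cluster held 196.5 and 206 CPM of Id1 against 28.4 and 42.1 CPM in WT (2.55 ± 0.24, adjusted p = 6.64e-05) and 227 and 167 CPM of Id3 against 36.0 and 37.4 CPM (2.45 ± 0.25, adjusted p = 0.000104). The groups were far apart and both calls passed in every alternative fit, and the v1 library lay between them at 66.4 CPM of Id1 and 92.2 CPM of Id3. Id2 held 8.42 and 4.74 CPM against 8.53 and 21.1 CPM and did not pass. The cluster had 151 and 173 Grhl3-/- and 79 and 58 WT cells, of which 48.6 to 50.3% and 3.80 to 6.90% were in S or G2M phase, and its summed stress genes stood at 5500 to 5880 CPM and 2047 to 2590 CPM. The v1 library had 38.7% of these cells in S or G2M phase and 3895 CPM of stress genes. The summed IFE suprabasal markers of the cluster stood at 12950 to 19580 CPM in Grhl3-/-, 42900 to 43940 CPM in WT and 40450 CPM in the v1 library. The part of these differences in the levels of Id1 and Id3 was not tested.

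Elsewhere the Id genes passed singly. Id3 in IFE suprabasal-like cells stood at 66.7 and 69.2 CPM against 22.6 and 41.7 CPM (0.98 ± 0.27, adjusted p = 0.0176), with adjusted p = 0.131 without WT replicate 1 and a change of -0.24 without integration. The part of the higher fibroblast and lower suprabasal markers of this class, given above beside Fst, in the Id3 difference was not tested. Id1 in macrophage-like cells stood at 16.4 and 15.7 CPM against 7.28 and 10.3 CPM (1.02 ± 0.26, adjusted p = 0.0177) and did not pass without WT replicate 1 (adjusted p = 0.103) or either Grhl3-/- replicate (0.0682 and 0.0704). Id2 fell in T cell-like cells, from 444 and 480 CPM in WT to 273 and 206 CPM (-0.87 ± 0.17, adjusted p = 0.0435), with adjusted p = 0.366 without Grhl3-/- replicate 2. In melanocyte-like cells Id2 stood at 171 and 191 CPM against 71.9 and 139 CPM (0.77 ± 0.23, adjusted p = 0.0365) and did not pass without WT replicate 1 (adjusted p = 0.232), Grhl3-/- replicate 1 (0.112) or Grhl3-/- replicate 2 (0.222).

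**Figure D5:**
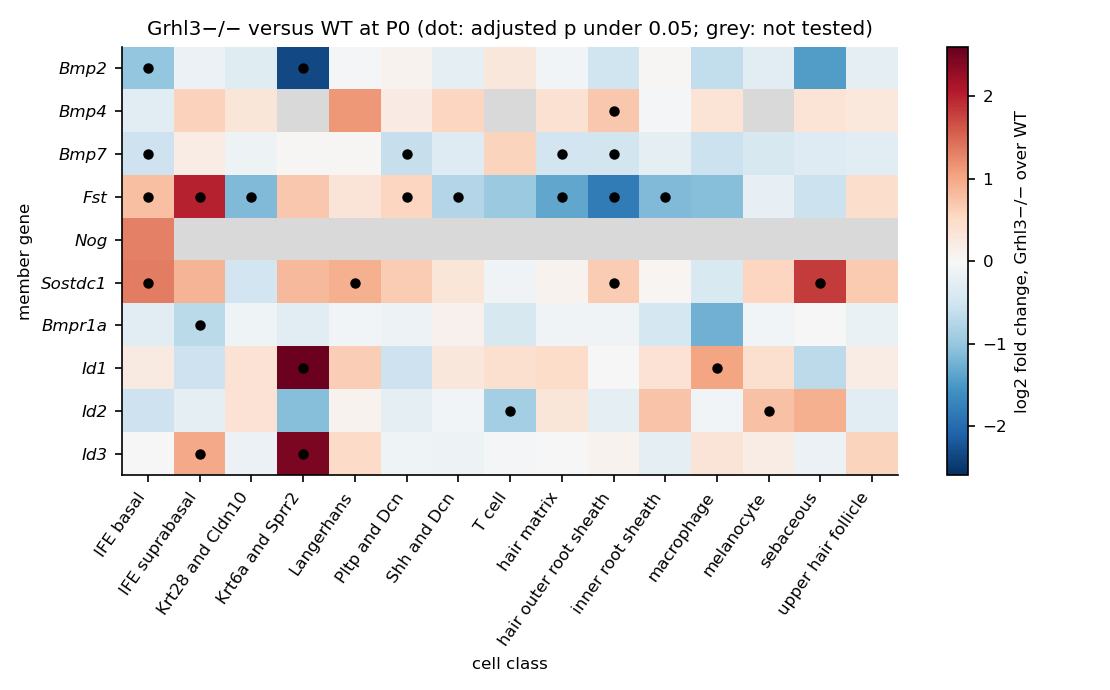
Log2 fold change of each gene in Grhl3-/- over WT at P0 by cell class (colour, red higher and blue lower in Grhl3-/-), with a dot where the adjusted p was under 0.05 and grey where the gene was not tested. Of 133 tests 26 carry a dot, 8 of them in the row of Fst, and the deepest red fields are Id1 and Id3 in the Krt6a and Sprr2 cluster.

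Whether the effect of Grhl3 loss differed between E16.5 and P0 was tested in the 4 classes present at both ages. Of 36 tests 3 passed, all with the higher value at P0, where 7.46% of all tests passed (4.82% higher and 2.64% lower). The median difference was 0.07 on the log2 scale for the 10 genes and 0.019 for all tests. The difference of log2 fold changes was 1.33 ± 0.42 for Sostdc1 in IFE basal-like cells (adjusted p = 0.0417), 1.61 ± 0.40 for Id1 (0.0309) and 1.46 ± 0.39 for Id3 (0.0461) in macrophage-like cells. Every one of these was lost without several single libraries, among them Grhl3-/- replicate 1 of E16.5, with adjusted p = 0.0787, 0.107 and 0.143 in that order, and, for Sostdc1, Grhl3-/- replicate 2 of P0 (0.334). For Sostdc1 the difference was 0.59 (adjusted p = 0.508) once S and G2M cells were left out. Its adjusted p was 0.0786 with only the libraries compared and 0.196 with DESeq2. Without called doublets the differences in macrophage-like cells were 1.23 for Id1 (adjusted p = 0.194) and 0.82 for Id3 (0.289). The stress genes of macrophage-like cells were below WT at E16.5, as given above, and above it at P0, at 3587 to 4379 CPM against 2098 to 2099 CPM. Those of IFE basal-like cells stood at 2079 to 2185 CPM against 3429 to 3538 CPM at E16.5 and at 3328 to 4057 CPM against 2929 to 3164 CPM at P0, and their part in these differences was not tested.

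Of 43 other genes of the pathway, up to 39 could be tested in a comparison. In WT 50 of 314 tests passed between E14.5 and E16.5 (15.9%, against 15.6% of all tests), 30 of them higher at E16.5. Between E16.5 and P0 47 of 87 passed (54%, against 45.9% of all tests), 34 of them higher at P0. In fibroblast-like cells the ligand gene Bmp5 fell from 12.8 to 21.4 CPM at E14.5 to between 0.752 and 0.891 CPM at E16.5 (-4.14 ± 0.30, adjusted p = 1.41e-05), and the target Msx1 from 8.02 to 17.1 CPM to between 0.0469 and 0.547 CPM (-5.38 ± 0.63, adjusted p = 0.000212). Grhl3-/- fibroblast-like cells of E14.5 also held less of both, 4.13 to 5.05 CPM of Bmp5 (-1.91 ± 0.22, adjusted p = 0.00347) and 0.459 to 0.925 CPM of Msx1 (-4.17 ± 0.49, adjusted p = 0.00352). These 2 comparisons share the WT libraries of E14.5. In this class 58.1 and 60.2% of Grhl3-/- and 53.1 and 44.2% of WT cells were in S or G2M phase at E14.5. Its summed fibroblast markers were 22200 to 22520 CPM in Grhl3-/- and 19060 to 19260 CPM in WT. The part of either in the lower values was not tested. Alternative fits for these other pathway genes are not given here.

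For the difference of the effects between P0 and E16.5, 7 of 87 tests of these genes passed (8.05%, against 7.46% of all tests). For the effect of Grhl3 loss 6 of 314 tests of these genes passed at E14.5 (1 higher, 5 lower), 2 of 314 at E16.5 (both lower) and 50 of 321 at P0 (16 higher, 34 lower). These were 1.91%, 0.637% and 15.6% of the tests, against 0.641%, 0.827% and 16.2% of all tests. At P0 the BMP antagonist Nbl1 was lower in the Krt6a and Sprr2 cluster, at 3.16 to 7.12 CPM against 32.8 to 61.6 CPM (-3.22 ± 0.43, adjusted p = 0.000428), as was the follistatin-like gene Fstl3 at 6.06 to 6.15 CPM against 27.5 to 39.8 CPM (-2.41 ± 0.34, adjusted p = 0.000585). The inhibitory Smad gene Smad7 was higher there, at 24.6 to 31.1 CPM against 8.19 to 9.48 CPM (1.67 ± 0.36, adjusted p = 0.00720). The part of this cluster's differences in suprabasal markers, cell cycle phase and stress genes, given beside Id1 and Id3, was not tested for these genes. Bambi, which encodes a decoy receptor, was lower in Grhl3-/- IFE suprabasal-like cells at E16.5, at 5.53 to 13.3 CPM against 24.6 to 30.3 CPM (-1.76 ± 0.37, adjusted p = 0.0241), and the difference of its effects between P0 and E16.5 was 3.40 ± 0.53 (adjusted p = 0.00725). At E16.5 the summed suprabasal markers of this class were 50040 to 76020 CPM in Grhl3-/- and 116200 to 129200 CPM in WT, and its stress genes 1665 to 1687 CPM and 2441 to 2605 CPM, and the part of either in the Bambi values was not tested.

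Over the 45 WT means of class and age the genes most like Fst were Wnt6 (Pearson r = 0.92), Sostdc1 (0.88) and Flrt3 (0.87), and those most like Sostdc1 were Wnt6 (0.90), Fst (0.88) and Arhgef19 (0.86). Among the genes most like each of the others, Bmp2 ran with Has3 (0.90) and Lrp4, Bmp4 with Frem1 (0.87), Gm15222 and Ism1, and Bmp7 with Bcl11a and Ntf5 (each 0.86). Nog ran with Gm266 and Igdcc4, and Bmpr1a with Efs (0.87), Pik3r2 and Fat1. Id3 ran with Ephb4 (0.85) and Rab23, and Id1 with Ephb4 (0.76), Id3 and Bok, whereas Id2 ran with Nucb1, Prex1 and Pde3b (each 0.79 to 0.80). The means share libraries and classes, and no test was made.

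All 10 genes are protein coding and lie, on GRCm38, at chr2:133552159-133562885 (Bmp2, ENSMUSG00000027358), chr14:46383520-46390669 (Bmp4, ENSMUSG00000021835), chr2:172868012-172940321 (Bmp7, ENSMUSG00000008999), chr13:114452290-114458951 (Fst, ENSMUSG00000021765), chr11:89300638-89302332 (Nog, ENSMUSG00000048616), chr12:36314139-36318452 (Sostdc1, ENSMUSG00000036169), chr14:34410734-34503341 (Bmpr1a, ENSMUSG00000021796), chr2:152736251-152737410 (Id1, ENSMUSG00000042745), chr12:25093799-25097140 (Id2, ENSMUSG00000020644) and chr4:136143497-136145755 (Id3, ENSMUSG00000007872). Bmp2, Sostdc1, Id1 and Id3 are on the plus strand and the others on the minus strand.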

How the data were processed

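The 13 libraries were made by the authors with 10x Chromium 3′ v2 chemistry, and v1 for 1 WT library at P0. The deposited files hold raw UMI counts per gene and cell barcode, which the authors made with Cell Ranger (version 1.3.1 per the submitters' processing notes, where the methods name another version, on mm10), and the methods say that dead cells were removed.

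Cells were kept with 600 to 4800 detected genes before birth, 900 to 7700 in the P0 libraries, and no more than 10% of UMIs from mitochondrial genes. They were clustered per age with Seurat 5.3.0, integrated across libraries and without the 10 genes among the variable genes, and before birth the epithelial clusters were clustered again. A cluster was named where its marker score reached 0.8 (0.5 for fibroblasts), led the next by 0.3 and rested on at least 3 detected markers. Among its 10 leading genes, its own markers had to outnumber those of any other class, or at least equal them for fibroblasts. Shallow clusters without own markers there, and clusters with B cell, basophil or neuron genes there, got no marker name. Names from leading genes replaced any other and were chosen after the clusters had been seen. Counts were summed per library and class where the library held at least 20 cells of it, and CPM was computed from these sums. Each class was fitted over the v2 libraries with edgeR 4.0.16 (TMM, filterByExpr, quasi-likelihood F test, R 4.3.3, limma 3.58.1) with a term per age and genotype, and p-values were adjusted by Benjamini and Hochberg over all genes of a class and comparison, with a threshold of 0.05. Genes were tested in 2 libraries per group, and an exact permutation test cannot go below 0.3333, so none was used. Shares of cells were taken after thinning each cell to 2000 UMIs, which every kept cell in the classes reached. Likeness was taken among genes with at least 10 CPM in 1 class mean. Doublets were left in and left out as an alternative (the 6% with the highest Scrublet scores). The scripts were tested on simulated counts. Python 3.11.15, scanpy 1.11.5 and DESeq2 1.42.0 were also used.

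The genes named were the 10 genes, of 43 other pathway genes up to 3 per direction and comparison with the largest change among those called, and the 3 genes most like each of the 10. Some genes that this rule names are not reported here. Bambi in IFE basal-like cells, listed among the results for a closer look, is outside that rule. The 10 genes and all lists were chosen with earlier results of these data known. UMI totals limit precision by counting error.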

Additional observations from a re-analysis of the deposited data

Results flagged for a closer look

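The effect of Grhl3 loss differed between P0 and E16.5 by edgeR's interaction test in 10 places, 3 of 36 tests of the 10 genes (8.33%) and 7 of 87 of the other pathway genes (8.05%), against 7.46% of all tests, with the value at P0 minus that at E16.5 on the log2 scale. For Sostdc1 in IFE basal-like cells it was 1.33 (adjusted p = 0.0417), resting on 1 of the 2 Grhl3-/- libraries at P0. In macrophage-like cells it was 1.61 for Id1, 1.46 for Id3, 1.98 for Acvrl1, a type I receptor gene, and 2.59 for Bambi. Stress genes in these cells were below WT at E16.5 (2402 to 2828 against 4773 to 5033 CPM) and above it at P0 (3587 to 4379 against 2098 to 2099 CPM), and summed IFE suprabasal markers at E16.5 were 123.5 to 219.9 against 1496 to 1991 CPM; the part of either was not tested. Bambi also differed by 3.40 in IFE suprabasal-like and 1.42 in IFE basal-like cells. In IFE basal-like cells Bmpr2, the type II receptor gene, differed by -0.74 (adjusted p = 0.0266), Skil by -1.11 (0.0406) and Fstl3 by -1.04 (0.0340). Stress genes of these basal-like cells were also below WT at E16.5 (2079 to 2185 against 3429 to 3538 CPM). At P0 they were above it (3328 to 4057 against 2929 to 3164 CPM), and their part was not tested. Alternative fits for the other pathway genes are not given here.

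In a further 16 of 120 gene and class pairs both Grhl3-/- libraries lay on one side of WT at E14.5 and on the other at E16.5, a difference that was not tested (13.3%, against 7.99% of all gene and class pairs). Given as the effect at E16.5 minus that at E14.5, it was -0.83 for Bmp2 in the Crabp1 and Stmn2 dermal cluster and -5.59 in IFE suprabasal-like cells. The latter value joins an effect of 1.395 at E14.5 and one of -4.19 at E16.5. At E16.5 the WT levels of Bmp2 were the low ones given above, and the Grhl3-/- libraries had 91 and 64 cells of the class. For Bmp7 it was -0.57 in hair placode-like and -2.26 in macrophage-like cells, and for Bmp4 0.84 in hair placode-like cells. Bmpr1a gave -0.91 in IFE suprabasal-like, -0.83 in macrophage-like and -1.26 in mast-like cells. Sostdc1 gave -1.53 in endothelial-like, -0.90 in fibroblast-like and -2.685 in macrophage-like cells. Among the targets Id1 gave -1.36 in macrophage-like cells, Id2 -0.33 in Schwann-like cells, and Id3 -0.38 in IFE basal-like and -1.75 in macrophage-like cells. Nog gave -0.94 in fibroblast-like cells, where the call at E14.5 was the one described above. Without overlap, summed IFE suprabasal markers were above WT in 10 of 14 classes at E14.5 and below WT in 13 at E16.5. Grhl3-/- fibroblast-like cells held 137 to 205 CPM of them against 93.95 to 111 CPM at E14.5. At E16.5 it was 208 to 268 against 1082 to 1546 CPM. Macrophage-like cells overlapped at E14.5 and held 123.5 to 219.9 against 1496 to 1991 CPM at E16.5. The part of these markers in the differences was not tested.

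The same was seen, again not tested, between E14.5 and P0 in 4 of 36 pairs (11.1%, against 12.1% of all pairs). The effect at P0 minus that at E14.5 was -1.195 for Bmp2, -1.66 for Bmp7 and -1.72 for Fst in macrophage-like cells, and -0.86 for Bmpr1a in IFE suprabasal-like cells. Summed suprabasal markers were below WT at P0, without overlap, in 11 of 15 classes, both of these among them, and their part was not tested.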

How the results depend on the processing

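Of the 97 calls, 29 passed in each of the 23 alternatives that gave a value, and 41 passed without each library in turn. Where calls are said to have passed in every alternative fit, fits that gave no value are not counted. Counts of calls moved by over 1.5 times as follows, and the cause was not tested. For Grhl3-/- against WT at E14.5 the count was 1, and it was 8 without the filter on low counts, 2 with only the compared libraries, 0 without cells in S or G2M phase, 3 without integration and 2 with DESeq2. At E16.5 it was 3, and 16 without the filter, 6 with only the compared libraries and 1 at resolution 0.5. At P0 it was 26, and 12 without integration, where 57 tests could be made. Between E14.5 and E16.5 in WT it was 44, and 22 without cells in S or G2M phase. In that fit hair placode-like and melanocyte-like cells could not be tested, for want of 20 cells per WT library at E14.5. Placode-like cells had held 3 of the higher calls and 1 of the lower ones. Between E16.5 and P0 in WT it was 20, and 12 at equal depth and 12 without cells in S or G2M phase. For the difference of effects it was 3, and 6 without the filter, 1 with only the compared libraries, 0 without cells in S or G2M phase, 1 without integration and 0 with DESeq2. Without single libraries the counts ran from 1 to 4, 1 to 4, 21 to 30, 30 to 46, 12 to 20 and 0 to 3 in this order. Direction turned for Bmp4 in the Crabp1 and Stmn2 dermal cluster between E14.5 and E16.5 (0.035 at resolution 0.5, 0.19 without integration) and, without integration at P0, for Id3 (-0.24) and Fst (-0.90) in IFE suprabasal-like cells. The median share of cells with a UMI was 6.03% after thinning and 21.4% before it. Deviations of same-numbered WT and Grhl3-/- libraries had r from -0.228 to 0.166. With 2 libraries per group, these values cannot show whether same-numbered libraries shared a litter or handling. With the replicate number as a block the counts were 2, 5, 31, 42, 19 and 2. With 2 libraries per group low genes such as Nog could seldom be tested.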
